A study of Rattus norvegicus with 18 samples.

Results

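The regions described here are those at which the authors listed a methylation difference between male fetal germ cells of rats whose mothers ate a high-fat diet (HFD) and those of control mothers. All rows of the authors' deposited table for that comparison were taken, which gave 10084 of the 61661 regions in the 4 full tables of the series. The fetuses were Sprague-Dawley rats of genotype GFP-GCS, in which a green fluorescent protein marks germ cells, and both diet groups and both sexes carried the transgene. Mothers ate 18% or 45% of their energy as fat from about the day of a sperm-positive smear, which counts as day 0, with 5 dams in each diet group. Male gonocytes, the germ cells of the fetal testis, were sorted by their fluorescence at gestational day (GD) 16, and the labels give 4 control and 4 HFD samples. The series has 18 samples in 5 groups, and its other groups are female gonocytes of GD16 (3 control, 3 HFD) and male ones of GD18 on control diet (4). The labels name no litters, so samples may share a dam. According to the design text 4 of the samples come from an earlier project, and it names no group for them, so it is unknown whether the project of origin differs between the diet groups. The labels do not name the promoter of the transgene or the purity of the sort, and methylation means at selected regions cannot check the cell type.

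Mammalian germ cells erase most DNA methylation while they colonise the fetal gonad, and male germ cells later set a new pattern before birth. Methylation sits on the cytosine of CpG dinucleotides, and at promoters and CpG islands it commonly accompanies silence of the gene. Imprinted genes carry marks of parental origin that are also cleared during this erasure. Bisulfite sequencing reads each CpG as methylated or not, and capture with a rat target panel limits the reads to chosen regions.

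Every methylation level below is the authors' mean over the CpGs of a region and over the samples of a group, in percent, and a difference is the HFD mean minus the control mean, in percentage points. The deposited table held group means alone, with neither values of single samples nor reads or coverage. The depth behind a level and the spread between fetuses are therefore unknown, and no replicate test was possible. A region is called higher or lower only because the authors listed it, at a false discovery rate (FDR) of at most 0.05. Listed regions had at least 5 CpGs and differed by at least 10 points. In the authors' deposited table the FDR was adjusted over 2747 regions in the higher direction, of which 95.5% were listed, and over 7674 in the lower direction, of which 97.2% were listed. Nearly all candidates thus passed, and an FDR in that table does not tell listed regions from other captured regions.

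On HFD, 7461 regions were less methylated than in controls and 2623 were more methylated, or 26.0% (exact Clopper-Pearson 95% interval 25.2 to 26.9%, which covers counting error over regions and treats neighbours as independent). The lower regions held 65442 CpGs and the higher ones 19459. At the lower regions the median of the authors' means was 25.2% in control males and 10.3% on HFD, and the middle 50% of regions lay between 21.9 and 30.1% in controls and between 7.4 and 13.2% on HFD. At the higher regions the medians were 10.5% and 27.7%, with the middle 50% between 6.8 and 14.3% in controls and between 23.1 and 33.8% on HFD. Both sets thus lay at about the same pair of levels, in opposite directions. Regions were listed for a difference between these same means, so that pattern follows in part from the choice. Weighted by CpGs over all 10084 regions, the mean was 22.7% in controls and 14.9% on HFD.

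**Figure D1:**
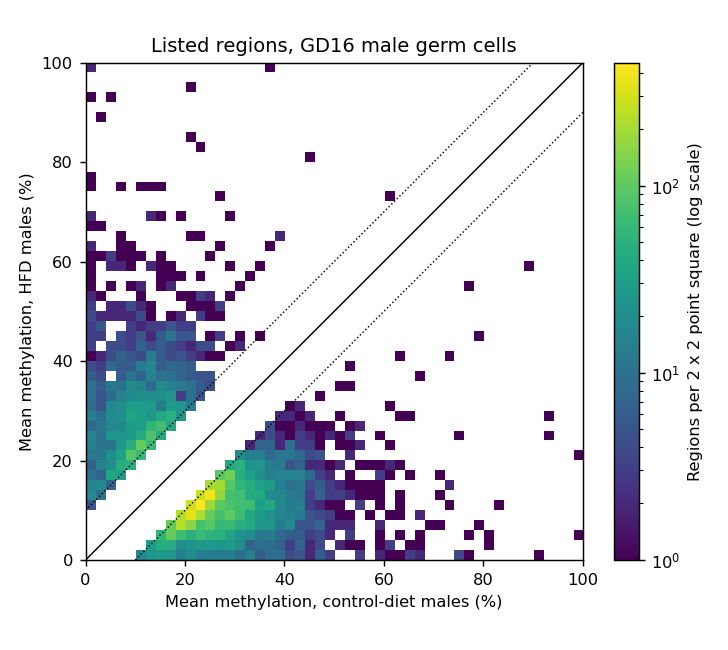
Each square counts listed regions by the authors' mean methylation in control males (horizontal axis, percent) and in HFD males (vertical axis, percent), with a logarithmic colour scale for the number of regions per square. The solid line marks equal means and the dotted lines the 10-point minimum of the list; the densest squares lie below the diagonal, where 7461 regions are, and high levels are rare on both axes.

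Few regions were highly methylated in either group. Of the lower regions, 124 stood over 50% in controls and 3450 (46.2%) ended under 10% on HFD. Of the higher regions, 445 started under 5% in controls, 120 of them at a listed mean of exactly 0, and 105 exceeded 50% on HFD. The 10-point minimum allows a listed fall only from a control mean of at least 10%, and 1205 of the higher regions started under that level. The plot of control against HFD means shows these edges as empty bands beside the diagonal.

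The direction of the difference went with the number of CpGs and with the size of the difference. Among regions of 5 CpGs, 32.6% were higher (exact interval 30.8 to 34.5%), among those of 10 to 14 CpGs 18.3% (16.5 to 20.1%), and among those of 20 or more CpGs 8.36%, or 23 of 275 (5.38 to 12.3%). By size the share higher went from 21.7% at 10 to 15 points (20.6 to 22.8%) to 33.2% at 20 to 30 points (31.1 to 35.3%) and 47.6% at 50 points or more (37.6 to 57.6%). Regions of the last class were short, with a median of 5 CpGs and 91 bp, against 8 CpGs and 374 bp at 10 to 15 points. Within regions of at least 20 points the share higher was still 40.4% at 5 CpGs and 23.3%, or 10 of 43, at 15 CpGs or more. Within those under 15 points it was 26.5% and 11.5%. Both trends thus appeared between the outer classes of the other measure, but the classes are broad. At 15 to 20 points the share higher was 28.7% at 5 CpGs and 11.1% at 15 CpGs or more. At 15 CpGs or more the trend with size therefore rests on the 43 regions of at least 20 points. The number of reads behind a mean, which could differ with length, was not available, and its part in these trends was not tested.

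**Figure D2:**
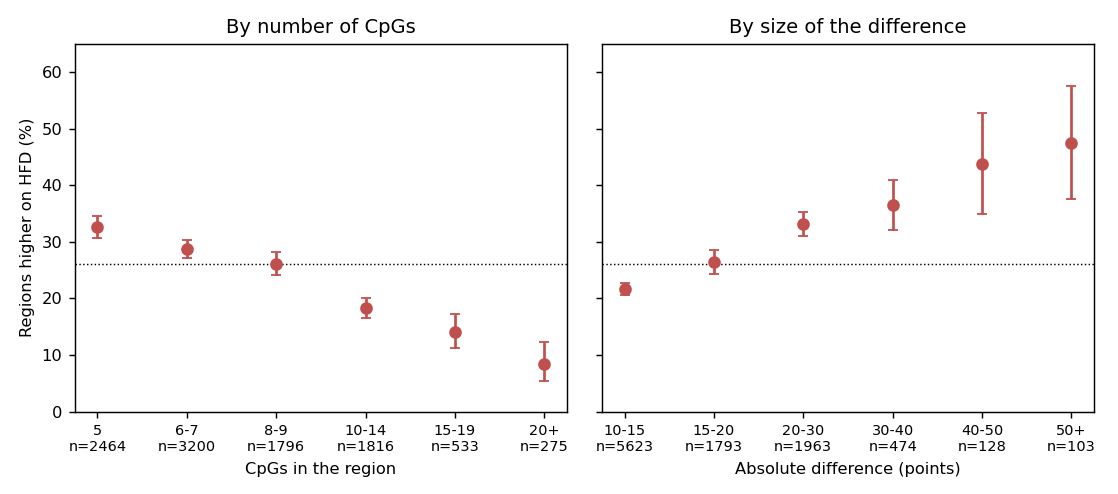
Percent of listed regions that were higher on HFD, by number of CpGs (left) and by absolute difference in percentage points (right). Points are shares with exact 95% intervals over regions, n is the number of regions in a class, and the dotted line is the share of 26.0% over all; shares fall from 32.6 to 8.36% with CpG number and climb from 21.7 to 47.6% with size.

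With at least 10 CpGs and inside a named gene or its promoter, the largest rise was in an exon of Spn, the leukocyte sialoglycoprotein CD43 (chr1:198575756-198575866, 10 CpGs). The authors' mean was 14.3% in controls and 69.2% on HFD there. An exon of Cyp4f40, a cytochrome P450 gene, went from 8.4 to 58.4% over 15 CpGs (chr7:14879928-14880036). Tada3, an adaptor subunit of histone acetyltransferase complexes, went from 16.8 to 59.0% in an exon, and Tbk1, a kinase of innate immune signalling, from 10.5 to 48.7% in an exon. These 4 regions spanned 53 to 218 bp. Further regions of this kind lay in exons of the zinc finger gene Zfp787 (1.7 to 33.2%) and the phosphodiesterase gene Pde10a (10.1 to 40.8%). An intron of Heyl, a transcriptional repressor downstream of Notch, went from 8.5 to 37.9%. Bsg encodes basigin, a chaperone of lactate transporters that mouse spermatogenesis requires, and its exon went from 8.1 to 34.5% over 15 CpGs. An intron of Tbrg1 went from 13.2 to 40.9% over 16 CpGs, an intron of the laminin receptor gene Bcam from 8.3 to 35.3%, an exon of the endocytic adaptor gene Ston2 from 4.9 to 30.5% and an intron of the ubiquitin ligase gene Neurl1 from 4.4 to 29.0%.

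The largest fall of this kind was in the 3' UTR of Prkch, which encodes protein kinase C eta (chr6:96677055-96677194, 10 CpGs), at 72.5% in controls and 15.1% on HFD. An exon of Mafk, a small Maf transcription factor, went from 46.6 to 6.1% over 12 CpGs (chr12:16926226-16926343). An exon of the cell polarity gene Pard6b went from 44.0 to 9.0% over 13 CpGs. Apart from Prkch, which started higher, control levels of these regions lay between 32.5 and 47.2%. The lowest HFD level was in an intron of Rasgrf2, an exchange factor for Ras and Rac, at 0.8% against 32.5% in controls. Exons of Adtrp (38.2 to 5.1%), Hdgfl1 (36.4 to 4.8% over 16 CpGs) and Pdzrn3 (36.8 to 7.7%) followed. An exon of Grin2b, a subunit of NMDA glutamate receptors, went from 36.6 to 7.6%, and an intron of the Mediator subunit gene Med15 from 43.5 to 14.8% over 17 CpGs. The 3' UTR of the zinc finger gene Zfp532 went from 47.2 to 15.3%.

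**Figure D3:**
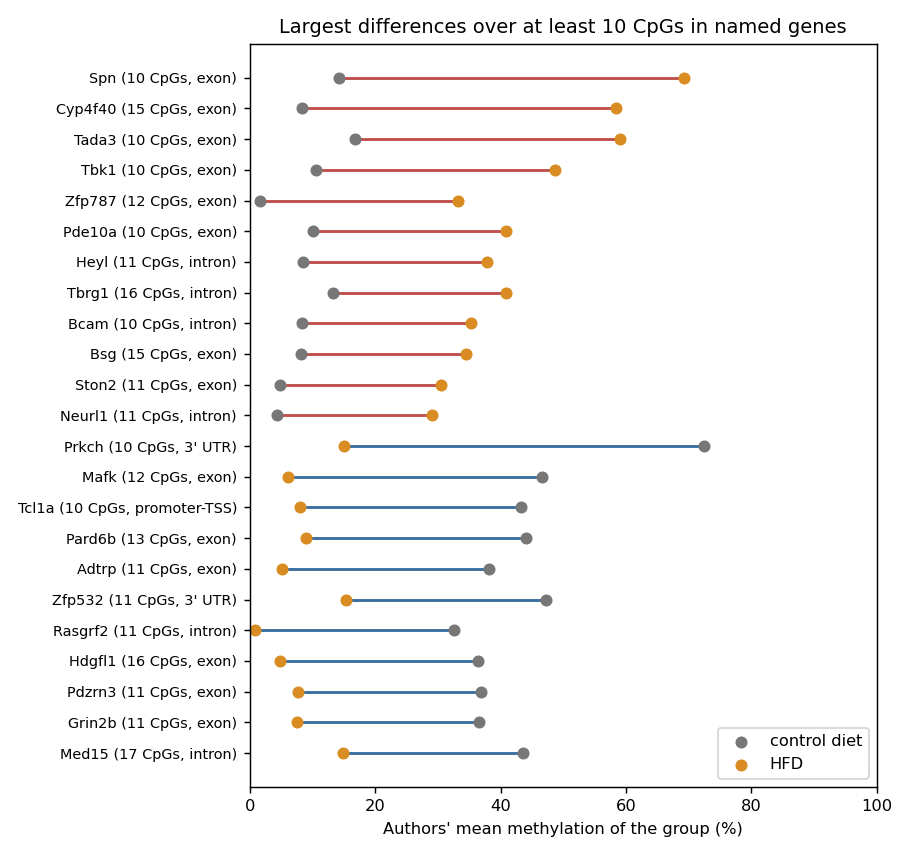
The authors' mean methylation (percent, horizontal axis) in control males (grey) and HFD males (orange) at the 12 largest rises (red lines) and 11 of the 12 largest falls (blue lines) over at least 10 CpGs in named genes. Most pairs join levels under 20% and levels between 29.0 and 59.0%; Spn at 69.2% on HFD and Prkch at 72.5% in controls lie beyond.

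The lower regions with the most CpGs differed by 10.1 to 11.6 points. Anxa6, a membrane-binding annexin, had the largest, 62 CpGs of an intron (chr10:40322669-40323345), at 24.6% in controls and 13% on HFD. Oxct1, the enzyme that opens the use of ketone bodies, followed with 60 CpGs of an intron at 25.9 and 15.2%, and then the cytoskeletal linker gene Plec with 58 CpGs of an exon at 22.1 and 12.0%. Panx2, a channel protein, had 50 CpGs at 19.8 and 9.3%. Among higher regions the largest were an intergenic stretch of 53 CpGs (chr1:53058065-53059321) at 11.0 and 26.2%, an exon of Zfp629 with 37 CpGs at 15.1 and 28.3%, and a stretch of 36 CpGs on an unplaced scaffold at 60.4 and 73.0%, the last from an unusually high control level. An LTR element of the ERVK family with 32 CpGs at 9.7 and 20% and an intron of Aig1 with 31 CpGs at 11.2 and 22.0% came next, and these 5 differed by 10.3 to 15.2 points.

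Promoters, as annotated by the authors, held 239 regions, of which 185 were lower and 54 higher, a share higher of 22.6% (exact interval 17.5 to 28.4%). The largest fall was at Ghrh, the growth hormone releasing hormone of the hypothalamus, with 65.6% in controls and 0.5% on HFD over 8 CpGs (chr3:153468773-153468859). At Lima1, an actin-binding protein, 92.9% in controls stood against 29.9% on HFD. Tcl1a, a coactivator of AKT kinases that mouse oocytes and early embryos express, went from 43.3 to 8.0% over 10 CpGs. Pdha2, the testis form of a pyruvate dehydrogenase subunit, went from 37.8 to 7.3%, Spaca1, a protein of the sperm acrosome, from 40.8 to 10.7%, and Msh4, which acts in meiotic crossing over, from 32.1 to 3.2%. The promoters of Cdyl2, a chromodomain gene (37.2 to 5.9%), and of the beta-defensin gene Defb23 (39.9 to 11.0%) completed the 8 largest falls.

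Among promoters that were higher, Art5, an ADP-ribosyltransferase, and the tight junction gene Cldn20 were listed at 0 in controls and stood at 35.8% and 34.8% on HFD, each over 5 CpGs. Tmem69 went from 13.7 to 48.3%, and Sidt1, a membrane protein linked to double-stranded RNA uptake, from 4.4 to 35.5%. Rnf17, a Tudor domain gene that mouse spermatids require, went from 1.3 to 28.1% over 8 CpGs. The promoter of the urea transporter gene Slc14a2 went from 17.9 to 42.7%, that of Sfnl1 from 1.4 to 28.2%, and the 5' UTR of Esrrg, an orphan nuclear receptor of energy metabolism, from 7.3 to 32.8%.

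Rec114, which helps to form the DNA breaks of meiosis, had a higher and a lower region at the same promoter. At chr8:63533480-63533638 the authors' mean over 8 CpGs was 17.0% in controls and 35.4% on HFD, and at chr8:63533711-63534038 it was 20.9 and 10.7% over 9 CpGs. The gap between them was 72 bp. In Heyl the intron region that was higher lay 36 bp from a lower one of 7 CpGs, at 58.9% in controls and 17.6% on HFD.

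The promoter sequences of 6 of these genes show how CpGs are spread there, and were chosen because the window can hold as many CpGs as the listed region. They come from the RefSeq table of rat build GRCr8, run from 250 bases before to 50 after the gene start in the direction of the gene, and capitals mark each CG, which reads the same on both strands. Of the 222 genes with a promoter region, 163 had a single matching entry. The build of the deposited coordinates is not known, so the place of a listed region inside a window is unknown, and part of it may lie outside.
Plagl1, chr1:9297214-9297513, plus strand: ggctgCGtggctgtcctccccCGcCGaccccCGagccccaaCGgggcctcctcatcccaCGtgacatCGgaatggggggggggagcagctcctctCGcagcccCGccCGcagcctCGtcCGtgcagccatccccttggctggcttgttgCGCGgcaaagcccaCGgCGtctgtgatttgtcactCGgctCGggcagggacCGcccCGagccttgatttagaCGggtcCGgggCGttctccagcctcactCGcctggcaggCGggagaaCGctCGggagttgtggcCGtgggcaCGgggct
Lima1, chr7:132880294-132880593, minus strand: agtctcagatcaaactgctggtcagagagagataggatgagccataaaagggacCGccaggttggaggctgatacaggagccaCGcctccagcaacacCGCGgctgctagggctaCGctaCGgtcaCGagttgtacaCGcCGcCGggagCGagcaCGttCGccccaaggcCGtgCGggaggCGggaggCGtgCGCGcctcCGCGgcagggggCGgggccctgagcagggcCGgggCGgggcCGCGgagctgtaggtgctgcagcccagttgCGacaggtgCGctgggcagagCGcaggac
Spaca1, chr5:53336808-53337107, minus strand: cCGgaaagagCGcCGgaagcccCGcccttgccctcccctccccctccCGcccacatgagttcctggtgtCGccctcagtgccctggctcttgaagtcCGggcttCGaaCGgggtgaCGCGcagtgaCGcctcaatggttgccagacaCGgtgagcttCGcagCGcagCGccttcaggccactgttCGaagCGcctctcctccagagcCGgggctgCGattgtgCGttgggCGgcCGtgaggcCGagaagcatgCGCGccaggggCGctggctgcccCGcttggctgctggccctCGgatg
Art5, chr1:165895257-165895556, minus strand: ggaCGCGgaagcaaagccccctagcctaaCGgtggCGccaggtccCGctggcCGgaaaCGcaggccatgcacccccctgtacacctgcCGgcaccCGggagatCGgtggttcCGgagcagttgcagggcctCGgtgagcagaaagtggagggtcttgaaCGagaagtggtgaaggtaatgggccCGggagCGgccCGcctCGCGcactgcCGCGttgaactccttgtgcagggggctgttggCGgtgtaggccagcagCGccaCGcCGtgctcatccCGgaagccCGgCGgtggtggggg
Sidt1, chr11:69869198-69869497, plus strand: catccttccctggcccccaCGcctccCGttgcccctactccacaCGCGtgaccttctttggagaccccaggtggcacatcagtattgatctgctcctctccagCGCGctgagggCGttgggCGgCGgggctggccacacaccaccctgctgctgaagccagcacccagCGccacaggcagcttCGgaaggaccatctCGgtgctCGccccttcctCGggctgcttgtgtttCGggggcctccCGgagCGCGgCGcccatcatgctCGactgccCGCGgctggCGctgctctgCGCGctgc
Rec114, chr8:68045638-68045937, minus strand: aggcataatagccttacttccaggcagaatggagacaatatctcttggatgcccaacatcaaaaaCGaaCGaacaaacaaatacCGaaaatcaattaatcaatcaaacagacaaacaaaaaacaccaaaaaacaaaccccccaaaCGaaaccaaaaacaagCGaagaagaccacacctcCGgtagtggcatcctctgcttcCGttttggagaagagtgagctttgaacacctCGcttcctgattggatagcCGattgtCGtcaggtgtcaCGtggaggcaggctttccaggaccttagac
The windows of Plagl1, Lima1 and Spaca1 hold 29 CGs each, that of Art5 27, that of Sidt1 25 and that of Rec114 11. Over all 33469 promoters of the table, 94.5% hold a CG and the median is 7. The genes with a higher and with a lower promoter region also had a median of 7 in their windows, but fewer of them were rich in CGs. The upper quartile was 19 over all promoters and 11 in either set, and 41.5% of all promoters held at least 10 CGs against 33.3 and 32.8%. Those sets, of 39 and 125 genes, hold only genes with a single entry. The 33469 promoters include genes with several entries and were not limited to captured ones, so the sets are unlike.

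CpG islands held 73 regions, 55 lower and 18 higher. The lower ones had medians of 25.4% in controls and 4.8% on HFD, below the 10.3% over all lower regions. Among them 14 CpGs at chr5:139933643-139933786, intergenic, had 58.4% in controls and 1.6% on HFD, and the authors' deposited table gave it an FDR of 6.37e-47. The deposited column names a t-test but not its unit of replication, so that FDR need not measure spread between fetuses. An island in an intron of the phosphatase gene Ptpn12 went from 66.6 to 3.9% over 6 CpGs. Island regions that were higher included an intergenic stretch of 8 CpGs on chromosome 7 (7.4 to 60.4%) and another of 10 CpGs on chromosome 19 (7.4 to 49.0%). On the X chromosome, 11 CpGs of an island went from 11.5 to 44.0%.

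By the authors' annotation 5039 regions were intergenic, 3502 intronic and 801 exonic, with shares higher of 26.7, 25.6 and 26.7%. In 3' UTRs 22 of 145 regions were higher, or 15.2% (exact interval 9.76 to 22.1%), and among those with at least 10 CpGs 1.89% were. Retrotransposons, which germ cells must silence again after erasure, were annotated at some of the regions. Their share of the captured sequence was not available, so their counts cannot be read as few or many. SINEs made up 3.17% of regions here and 2.34% of those listed between control males and control females. For LINEs the shares were 0.516 and 0.384%, and for LTR elements 0.466 and 0.384%. SINEs held 320, of which 31.6% were higher (26.5 to 37.0%), LINEs 52 (12 higher) and LTR elements 47 (9 higher). Within SINEs, 16 of 39 ID element regions and 33 of 91 B4 regions were higher. These intervals are wide, and the shares were not tested against each other.

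Both directions occurred on all 20 autosomes, with shares higher from 20.8% on chromosome 11 to 30.7% on chromosome 10. The X chromosome had 52 of 160 regions higher, or 32.5% (25.3 to 40.3%), and the Y chromosome a single region, lower on HFD. Of 338 neighbouring pairs less than 1 kb apart, 231 went the same way (68.3%), 205 of them both lower. Among all neighbours on a chromosome the share was 62.0%, and over all possible pairs of placed regions it was 61.6%. Runs of at least 4 regions of the same direction, with neighbours within 10 kb, numbered 19, of which 18 were lower. Since 7461 of all 10084 regions were lower, most such runs would be lower in any case, and clustering was not tested. The longest run held 7 regions without a gene name and 67 CpGs (chr20:19752216-19779650), at a mean of 29.9% in controls and 7.67% on HFD. A run of 6 regions with 57 CpGs lay at Pik3cd, a catalytic subunit of phosphoinositide 3-kinase (chr5:166603219-166613700), at 29.1 and 10.7%. Runs of 5 lay at the cholesterol transporter gene Npc1 (24.9 and 9.64%) and the cardiac myosin gene Myh7 (25.1 and 12.4%). The only run that was higher had 4 regions at Piezo1, a mechanosensitive channel, and its neighbour Rnf166 (chr19:55294338-55312118), at 8.1 and 24.8%.

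Of the 8242 genes with a region in any full table, 2934 (35.6%) had at least 1 region here, 983 (11.9%) a higher one and 2381 (28.9%) a lower one, so that 430 had both. Among 385 genes with at least 3 regions, 120 had lower regions throughout, 4 had higher ones throughout and 261 had both. Ank3, the membrane scaffold ankyrin-G, had the most regions, 15, with 6 higher and 9 lower. Camta1, Abcc4, Foxn3, Ptprm and Ctdspl had 12 each, with 2, 3, 3, 2 and 5 higher, and Adgrl2 and Skap1 had 11 each, with 4 and 3 higher. Genes with many regions and none higher included Klhl29 (7 regions, 75 CpGs, mean 27.8% in controls and 13.5% on HFD), Anks1b (7 regions), and Pik3cd and Bach2 (6 each). The 4 genes with 3 higher regions and no lower one were Cpne4 (13.1 to 28.7%), the cilium gene Gas8 (16.4 to 34.7%), Tox2 (10.6 to 27.0%) and Sobp (8.73 to 33.0%).

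Gene lists were read against these backgrounds, with 35.6% of genes having a region, 25.5% of the 4640 regions with a gene name higher and a median difference of -11.8 points. A list's members are counted among the genes with a region in any full table. Members of the lists were chosen with earlier results known, and none of the lists was tested. Across the 23 lists the regions of 303 genes were counted, and 24.1% of them were higher, a share near that of all genes.

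Imprinted genes are marked by parent of origin. Of the paternally expressed ones 5 of 12 had a region, and all 10 regions were lower, with a median difference of -10.9 points. Sfmbt2, a Polycomb-related gene, had 4 of them, the largest at 36.9% in controls and 8.1% on HFD. The promoter of Plagl1, a zinc finger growth regulator, went from 22.4 to 1.1% over 8 CpGs, and introns of the amino acid transporter gene Slc38a4 from 30.2 to 6.5% and of Inpp5f from 21.3 to 10%. Of the maternally expressed ones 7 of 19 had a region, 8 lower and 1 higher, with a median of -13 points. The higher one was an exon of Zim1, listed at 0 in controls and at 25.5% on HFD. Lower ones lay in introns of Trappc9 (41.4 to 20.2%), Commd1 (24.6 to 8.7%) and Ppp1r9a (29.1 to 13.4%).

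Germline genes had a region at 13 of 31 members, 7 regions higher and 11 lower (median -11.2 points). Gsg1, a gene of male germ cells, had 2 higher regions, an intron at 1.3 and 100% over 5 CpGs and its promoter at 5.3 and 24.7%. Tdrd1, a Tudor protein of the piRNA pathway, went from 2.7 to 31.5% in an intron. Kit, the stem cell factor receptor that germ cells need to migrate and survive, had 4 intron regions, all lower, the longest with 31 CpGs at 16.7 and 5.7%. The piRNA-binding Piwi genes differed among themselves. Piwil2 went from 11.0 to 23.7% over 14 CpGs, Piwil4 from 20 to 9.2% at its promoter, and Piwil1 had an intron region that went from 42.1 to 20.4% and another from 6.9 to 17.4%. Meiosis genes had a region at 3 of 15 members, Msh4, Rec114 and Trip13, of which 1 of 4 regions was higher (median -10.9 points).

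Genes of DNA methylation and demethylation had a region at 5 of 15 members, 2 higher and 7 lower (median -18.8 points). Tdg, the glycosylase that removes oxidised cytosines, went from 38.9 to 8.3% in an exon, and Mbd3, of the NuRD complex, from 46.8 to 15.3% in an intron. Parp1, a DNA break sensor, went from 5.7 to 48.2% in an exon. Histone modifying enzymes had a region at 15 of 36 members, 6 higher and 19 lower (median -11.8 points). Ehmt2, which methylates histone H3, went from 8.6 to 36.9% and the arginine methyltransferase gene Prmt8 from 14.7 to 41.8%, while the deacetylase gene Hdac1 went from 35.2 to 14.2%.

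Markers of other cells of the testis had mostly lower regions too. Sertoli and granulosa genes had a region at 2 of 9 members and 4 lower regions (median -10.8 points), 3 of them at Lgr5 and 1 at Runx1. Leydig and theca genes had a region at 4 of 10, 1 higher and 6 lower (median -12.2 points). Among them Pdgfra, a growth factor receptor, went from 14.5 to 47.7% in an exon, and Cyp11a1, which starts steroid synthesis, from 26.6 to 5.7%. Blood and endothelial genes had a region at 10 of 20, 3 higher and 14 lower (median -11.2 points). Of these genes, 3 had a higher region and 9 a lower one, and 2 had both. The embryonic and adult globin genes Hbz (22.1 to 11.8%) and Hbb (20.6 to 3.6%) were lower, and were picked after their values were seen. Neither is among the 4 largest differences of the list, which went both ways. Region methylation gives no count of such cells in the sort, and their part in the results was not tested.

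Metabolic genes went both ways. Insulin, IGF and incretin genes had a region at 14 of 39, 6 higher and 20 lower (median -11.8 points), with the insulin receptor gene Insr at 47.9 and 5.3% in an intron, the transcription factor gene Foxo3 at 32.2 and 10.9%, and the kinase subunit gene Pik3cb higher at 17.0 and 41.7%. Lipid genes had a region at 25 of 57, 8 higher and 26 lower (median -11.3 points). There the fatty acid elongase gene Elovl2 went from 37.3 to 8.1%, and Mgll, the monoacylglycerol lipase, from 31.5 to 7.2%. The largest rise of the list, at Lpin1, a phosphatidate phosphatase, was from a listed 0 to 98.3% over 6 CpGs. Adipokine, appetite and thermogenesis genes had a region at 15 of 32, 6 higher and 17 lower (median -11.6 points). Fto, an RNA demethylase linked to body weight, was higher over 18 CpGs of an intron (16.5 to 34.6%), and the cannabinoid receptor gene Cnr2 was higher at its promoter (5.9 to 27.9%). Mitochondrial genes had a region at 20 of 36, 5 higher and 26 lower (median -13.1 points), with the fusion gene Opa1 at 59.9 and 7.0%, Nrf1, a regulator of respiratory genes, at 38.4 and 9.8%, and the coactivator gene Ppargc1a at 36.9 and 3.3%. Nuclear receptors had a region at 10 of 27, 3 higher and 18 lower (median -11.3 points), among them the bile acid receptor gene Nr1h4 at its promoter (29.9 to 5.6%), the vitamin D receptor gene Vdr over 12 CpGs (33.8 to 12.5%) and the thyroid hormone receptor gene Thrb over 14 CpGs (40.1 to 22.2%).

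Signalling genes of development were similar. The retinoic acid list, whose pathway is linked to the start of meiosis in fetal ovaries, had a region at 8 of 16, 4 higher and 6 lower (median -10.4 points), with the synthesis gene Aldh1a2 at 32.5 and 7.0% and the dehydrogenase gene Rdh12 higher at 1.4 and 29.9%. TGF-beta, BMP and activin genes had a region at 22 of 47, 8 higher and 27 lower (median -11.9 points). The receptor gene Tgfbr2 went from 3.3 to 44.2%, and the ligand gene Bmp7 from 5.4 to 35.3%. Wnt genes had a region at 14 of 42, 6 higher and 15 lower (median -12.5 points), with the receptor gene Ror2 at 48.8 and 6.2%, the transcription factor gene Lef1 at 42.7 and 9.3%, and the ligand gene Wnt7b over 14 CpGs at 31.8 and 6.2%. FGF and receptor tyrosine kinase genes had a region at 19 of 45, 10 higher and 35 lower (median -12.2 points), with Erbb2 lower at 35.8 and 1.9% and Epha2 higher at 1.9 and 31.0%. Homeobox, Pax and T-box genes had a region at 16 of 32, 5 higher and 21 lower (median -12.9 points), with Cux2 at 41.4 and 4.1% and Pax5 at 44.7 and 8.6%.

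Among the lists, collagens and laminins and axon guidance genes had the largest shares of members with a region. Voltage-gated ion channels had a region at 33 of 60 (55.0%), 18 higher and 50 lower (median -11.5 points). Their largest differences lay at Scn2a and Scn3a, neighbouring sodium channel genes, in opposite directions, at 79.4 and 7.2% in an exon of Scn2a and at 15.6 and 74.3% in an exon of Scn3a. Glutamate and GABA receptors had a region at 18 of 36 (50.0%), 9 higher and 33 lower (median -12.8 points). Axon guidance genes had a region at 24 of 38 (63.2%), 14 higher and 36 lower (median -11.7 points), with Sema3b higher at 3.0 and 48.8% and the netrin gene Ntn1 lower at 34.4 and 11.4%. Collagens and laminins had a region at 15 of 22 (68.2%), 8 higher and 17 lower (median -13.4 points), with Lama5 at 36.7 and 0.7% and Col16a1 at 3.5 and 38.9%. How many captured regions each gene has was not available, so these shares cannot be read as a preference for such genes.

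**Figure D4:**
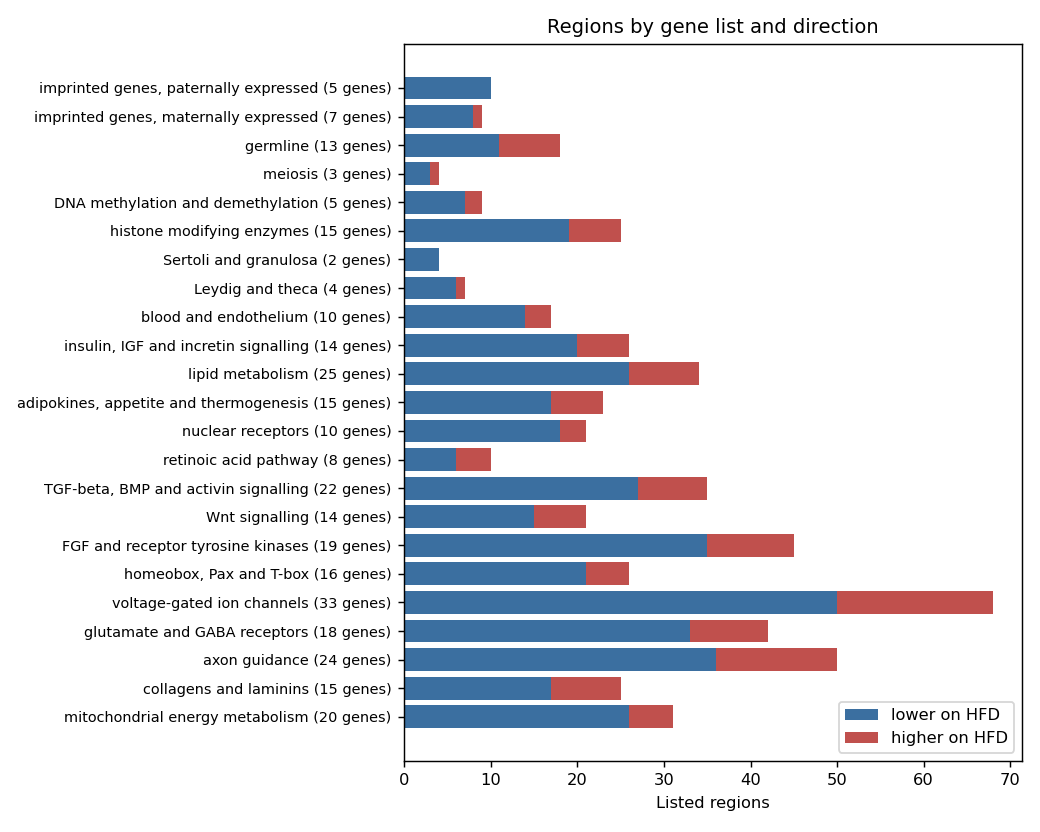
Number of listed regions lower (blue) and higher (red) on HFD in each of the 23 gene lists, with the number of genes that have a region in brackets. Lower regions outnumber higher ones in every list, from 6 against 4 in the retinoic acid list to 50 against 18 in the ion channel list.

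MicroRNA genes had 19 regions at 19 genes, 14 lower and 5 higher, a share near the 26.0% higher over all regions. MicroRNA genes with a region in any full table were not counted. MicroRNAs pair with messenger RNAs chiefly through their seed, bases 2 to 8, shown in capitals in the mature RNAs below, which come from RefSeq for GRCr8. They belong to the 3 microRNA genes with the largest differences and to Mir874, whose region holds 15 CpGs.
rno-miR-3546: aUAACCCGggccaaaagcucac
rno-miR-760-3p: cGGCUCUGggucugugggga
rno-miR-760-5p: cCCCUCAGgccaccagagcccg
rno-miR-874-3p: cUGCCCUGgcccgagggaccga
rno-miR-3120: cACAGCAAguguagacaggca
The region at Mir3546 went from 35.0% in controls to 8.3% on HFD, and that at Mir760, a stretch of 22 bp with 5 CpGs, from 32.1 to 5.8%. The region at Mir874 went from 18.9 to 4.4%. At Mir3120 it was higher, at 9.2 and 29.8%. No pair among these 5 mature RNAs has the same seed. The regions are annotated to promoters or transcript ends and need not contain the mature sequence.

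The comparison of HFD with control females shares no sample with that of males. Its table listed 1832 regions, of which 28.3% were higher (exact interval 26.3 to 30.5%). At a minimum overlap of 1 bp, 291 male regions (2.89%) and 290 female regions (15.8%) overlapped. Of the 293 pairs, 32 were higher in both sexes, 136 lower in both, 67 higher in males with a fall in females, and 58 lower in males with a rise in females, so that 57.3% went the same way. Of the pairs, 99 were higher in males and 90 in females. Over all possible pairs of a male and a female region the share with the same direction was 60.4%. That value rests on all listed regions, while overlapping pairs held a larger part of higher regions in both sexes. It is therefore no exact reference for them, and whether overlap went with direction was not tested. With an overlap of at least 50% of each region the share was 53.1%, and at the 51 pairs with identical coordinates it was 47.1%. Where both were lower, the medians were 26.4% in control males and 10% on HFD, and 17.2% in control females and 2.6% on HFD. Where males were lower and females higher, they were 30.2 and 10.2% in males and 2.1 and 15.7% in females. The overlap with named genes was led by Trim71, an RNA-binding protein of stem and early germ cells, at its transcript end (chr8:122553031-122553098), with 38.9 and 6.0% in males and 22.3 and 59.8% in females. The Defb23 promoter had 39.9 and 11.0% in males and 5.8 and 36.9% in females. Kif26b, a kinesin gene, was lower in both, at 39.7 and 11.0% in males and 33.8 and 0.6% in females. Itpr2, a calcium release channel, and Pax2, a kidney and gonad duct regulator, were higher in males (9.6 to 33.4% and 14 to 37.5%) and lower in females (34.1 to 2.1% and 41.2 to 1.1%). Otof went from 35.6 to 10.1% in males and from 5.6 to 29.3% in females.

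Some regions also stand, with the same coordinates, in the authors' table that compares control males with control females. That table and the diet table share the control males, so their values are set side by side only. By the choice of regions the HFD mean is below the control male mean at lower regions and above it at higher ones. The regions were also listed for a difference between control males and control females, so a gap between those groups is set by choice too. Neither part of the ordering is therefore a result, and where HFD means lie relative to control females was not tested. At 1089 regions lower on HFD the medians were 25.6% in control males, 10.4% in HFD males and 5.0% in control females. The HFD mean lay between the other two at 953 of them and below the control female mean at 136. At 64 regions higher on HFD the medians were 16.5, 30.4 and 3.5%. The control male mean was the same to the last digit in both tables at 917 of these 1153 regions (79.5%), and it differed by more than 1 point at 96, by up to 13.5 points. The number of CpGs was equal at 921. Against the table of GD18 control males and GD16 control females, 47 lower regions had the same coordinates, with medians of 29.2% in GD16 control males, 9.9% in HFD males, 4.4% in GD18 control males and 17.9% in control females. At the 12 higher regions the medians were 9.15% in GD16 control males, 26.1% in HFD males, 3.4% in GD18 control males and 18.1% in control females. These regions were listed for a difference between GD18 control males and control females, so that contrast is set by choice. The medians also pool both of its directions. GD18 control males were lower than control females at 35 of the 47 regions and higher at 12. Of the 12 regions higher on HFD, they were lower at 11 and higher at 1.

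**Figure D5:**
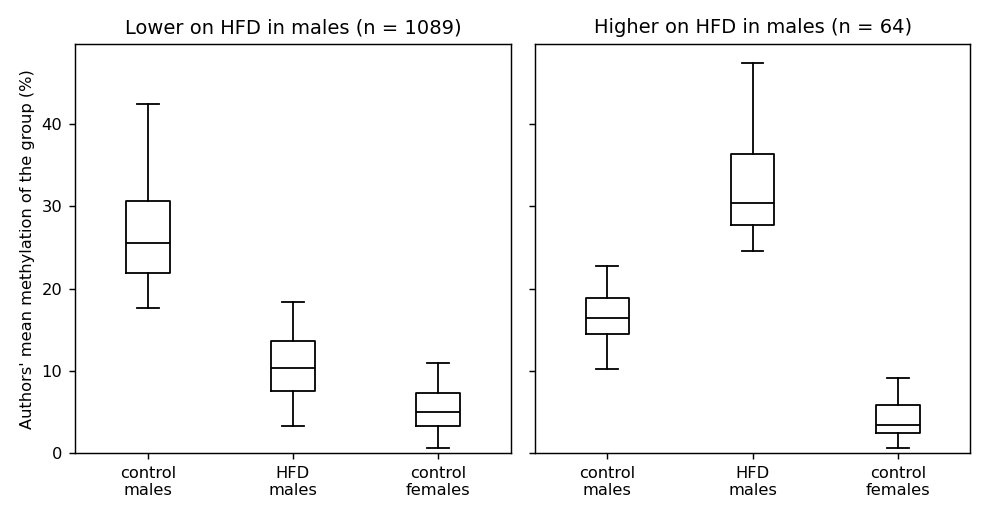
The authors' mean methylation (percent) in control males, HFD males and control females at regions with the same coordinates in the diet and the sex table, for the 1089 lower (left) and the 64 higher (right) on HFD. Boxes give the quartiles over regions with the median as a line, and whiskers the 5th and 95th percentiles. By their medians, HFD males lie between the control groups on the left and above both on the right. The side of control males on which HFD males lie is set by the choice of regions, and so is a gap between the control groups.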

How the data were processed

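Germ cell DNA was captured with the Agilent rat SureSelectXT Methyl-Seq panel, per the labels' protocols. Per the submitters' processing notes, reads went through Bowtie2 and Bismark 0.19.0. No source used here names the genome build, so regions are printed with the coordinates of the deposited files. Of the 6 deposited tables the 4 full lists were used. Per the file headers, the authors gave each region the mean methylation of either group as a fraction, printed here as percent. The authors also deposited the signed difference as a score, which had the sign of HFD minus control at all 10084 regions. The p-value, from a t-test per its header, and the FDR were deposited by the authors, as was the annotation of features, islands and repeats. Multiplying each FDR by its rank and dividing by its p gave the number of regions adjusted over.

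The fit planned for values per sample was not made, since only group means were given. Directions, levels, features, neighbours and gene lists were counted with Python 3.11.15, pandas 2.3.3, numpy 2.4.6 and scipy 1.17.1, and the counting steps were tested on simulated data. In 454 gene identifiers a stray bracket was dropped, and 94.4% of 3135 distinct identifiers had a symbol in the RefSeq table of GRCr8, used for names and sequences only. In 5 of 4640 named regions the gene lies on another chromosome in that table, and those genes are not named. Some genes stand in several lists.

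Named genes are, per direction, the 12 regions with the largest difference over at least 10 CpGs in a named gene, the 8 largest in promoters or 5' UTRs, the 5 largest in CpG islands and the 5 with the most CpGs, then the 8 genes with the most regions, up to 4 members of each list and the 6 largest shared with females. Other genes, such as those of runs, microRNAs, close pairs and further list members, were chosen after their values were seen. Some genes that meet these rules are not reported here. The members and the 23 lists were chosen with earlier results of these data known. Alternatives used at least 10 CpGs, at least 20 points, an FDR of at most 0.001, at least 50 bp, autosomes only, weighting by CpGs, merging within 1 kb, counting genes, and other overlaps.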

Additional observations from a re-analysis of the deposited data

How the results depend on the processing

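Lower regions outnumbered higher ones under each alternative tried for the counts. With at least 10 CpGs, 430 regions were higher and 2194 lower (16.4% higher). With at least 20 points there were 930 and 1738 (34.9%), with an FDR of at most 0.001 there were 1407 and 4883 (22.4%), and over genes 983 and 2381 (29.2%). The share higher by feature at 10 CpGs and at 20 points was 18.4 and 33.4% for intergenic regions, 15.3 and 36.6% for introns, 14 and 38.1% for exons, 8.06 and 41.2% for transcript ends and 1.89 and 24.3% for 3' UTRs. At 10 CpGs it was 14.9% for promoters and 22.8% for SINEs. Female regions that overlap a male region numbered 51 with identical coordinates, of which 47.1% went the same way, and 33 with at least 10 CpGs. Listed genes with a region numbered 111 with at least 10 CpGs, and 13.6% of their regions were higher.

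Of 63 values recomputed, 34 stayed within their limits. The limit was a fixed fold change for counts and medians, and the exact interval of the first value for shares. The number of members with a region was recomputed for each list as well, and 24 of these 46 values stayed within the limit. With at least 10 CpGs only 1 of the 23 lists did, and with regions inside the gene or its promoter all 23 did. No paired analysis was possible because only group means were deposited, and leaving out replicates could not be run for the same reason. The depth of the libraries is unknown, so levels at or near 0 or 100% over few CpGs carry an unknown error.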
